A study of Oryctolagus cuniculus with 16 samples.

Results

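The genes described here encode Toll-like receptors, the co-receptors *CD14* and *LY96*, and the adaptors *MYD88* and *TIRAP*. They were chosen by symbol from a list of 10 genes. Of these, 9 were found among the 20255 genes in the deposited table of rabbit femoral head RNA: *TLR2*, *TLR3*, *TLR4*, *TLR5*, *TLR6*, *CD14*, *LY96*, *MYD88* and *TIRAP*. All 9 passed the filter on low counts and were tested with 15305 genes in all. *TLR8*, which RefSeq types as a pseudogene in rabbit assembly mOryCun1.1, was listed neither by symbol nor by gene identifier and was not analysed here.

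Toll-like receptors recognize microbial products and molecules released from injured tissue. Most of them signal through *MYD88*, which assembles a kinase complex that activates NF-κB and induces inflammatory cytokines. *CD14* and *LY96* present bacterial lipopolysaccharide to *TLR4*, and *TIRAP* links *TLR2* and *TLR4* to *MYD88*. In bone and marrow, macrophages, neutrophils and osteoclast precursors carry many of these receptors. The adaptors are present in most leukocytes.

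The model of Perthes disease, an osteonecrosis of the femoral head in childhood, was produced by surgery on wild-type rabbits at 8 weeks of age. The femoral neck was ligated and the ligamentum teres was cut, which obstructs the blood supply of the epiphysis. Femoral heads of 5 Perthes rabbits were compared with those of 3 wild-type control rabbits, and the comparison asks which genes differ in the necrotic femoral head. The age of the controls, any sham surgery and the interval from surgery to sampling are not given in the sources used here. Ribosomal RNA was removed before directional libraries were made, and each library was 1 rabbit. The libraries held 27331725 to 29461482 counts in Perthes rabbits and 26757087 to 28783082 in controls. Levels are given in CPM, the counts of a library scaled to its total after TMM normalization. This scale does not account for gene length, so levels were compared between rabbits and not between genes. No sequencing batches are named in the labels.

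The libraries had the markers of a femoral head. Osteoblast and osteocyte markers summed to 47915 to 147459 CPM in Perthes rabbits and 74391 to 93921 CPM in controls, chondrocyte markers to 39062 to 151804 and 47061 to 68547 CPM, and skeletal muscle markers to only 7.68 to 18.4 and 7.29 to 62.3 CPM. Blood cell markers differed between the groups, tested gene by gene with edgeR's quasi-likelihood test at an adjusted p below 0.05. Over all 15305 genes tested, 6.21% rose and 8.86% fell. For macrophages, 4 of 7 tested genes rose and 1 fell (*CSF1R* among those that rose), with summed levels of 455 to 1445 CPM in Perthes rabbits and 489.7 to 598 CPM in controls. For neutrophils, 0 of 9 tested genes rose and 4 fell, with summed levels of 511 to 3077 CPM and 7707 to 23011 CPM that did not overlap. For erythroid cells, 0 of 9 tested genes rose and 2 fell (sums of 498 to 20164 and 25792 to 42177 CPM), and for fibroblasts, 4 of 9 tested genes rose and 0 fell (16120 to 27672 and 1953 to 9963 CPM). Sums over the monocyte and dendritic cell (50.7 to 205 and 76.4 to 165 CPM), B cell (31.00 to 72.3 and 47.5 to 71.1 CPM), T cell (5.93 to 28.5 and 10.2 to 22.1 CPM), endothelial (341 to 524 and 411 to 524 CPM) and adipocyte lists (135 to 1486 and 493 to 1459 CPM) overlapped between the groups, and that of the platelet list (6.62 to 98.8 and 156 to 428 CPM) was lower in every Perthes rabbit. No listed macrophage or neutrophil marker was at 0 in all libraries. In such bulk tissue, fewer cells of a type and less RNA per cell cannot be told apart, and the part of these cell markers in the results below was not tested.

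*CD14* rose and *TIRAP* fell in Perthes rabbits, and none of the 5 receptors, *LY96* or *MYD88* passed the test. Over all genes tested, 15.1% passed, 6.21% in the higher and 8.86% in the lower direction, so that 2 of 9 members is close to the background. *CD14* reached 173 ± 96.3 CPM (SD, n = 5) against 33.4 ± 22.2 CPM (SD, n = 3), and *TIRAP* 6.88 ± 0.806 CPM against 18.9 ± 11.3 CPM. The log2 fold changes of the 9 members had a median of 0.38, beside 0.025 over all genes tested. Neither gene passed the limits of the study (an adjusted p below 1e-05 and a log2 fold change above 2 or below -2) in edgeR, nor in DESeq2. In edgeR, 0 of the 15305 genes passed those limits (0%), and in DESeq2 200 did (1.31%). At an unadjusted p below 0.05, 3 members passed in edgeR (*CD14*, *TIRAP* and *TLR2*), beside 31.9% of all genes, and 4 in DESeq2, beside 34.7%. The 2 groups did not overlap for *TIRAP* and *TLR6*, that is for 2 of 9 members, and for 25.2% of all genes.

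**Figure D1:**
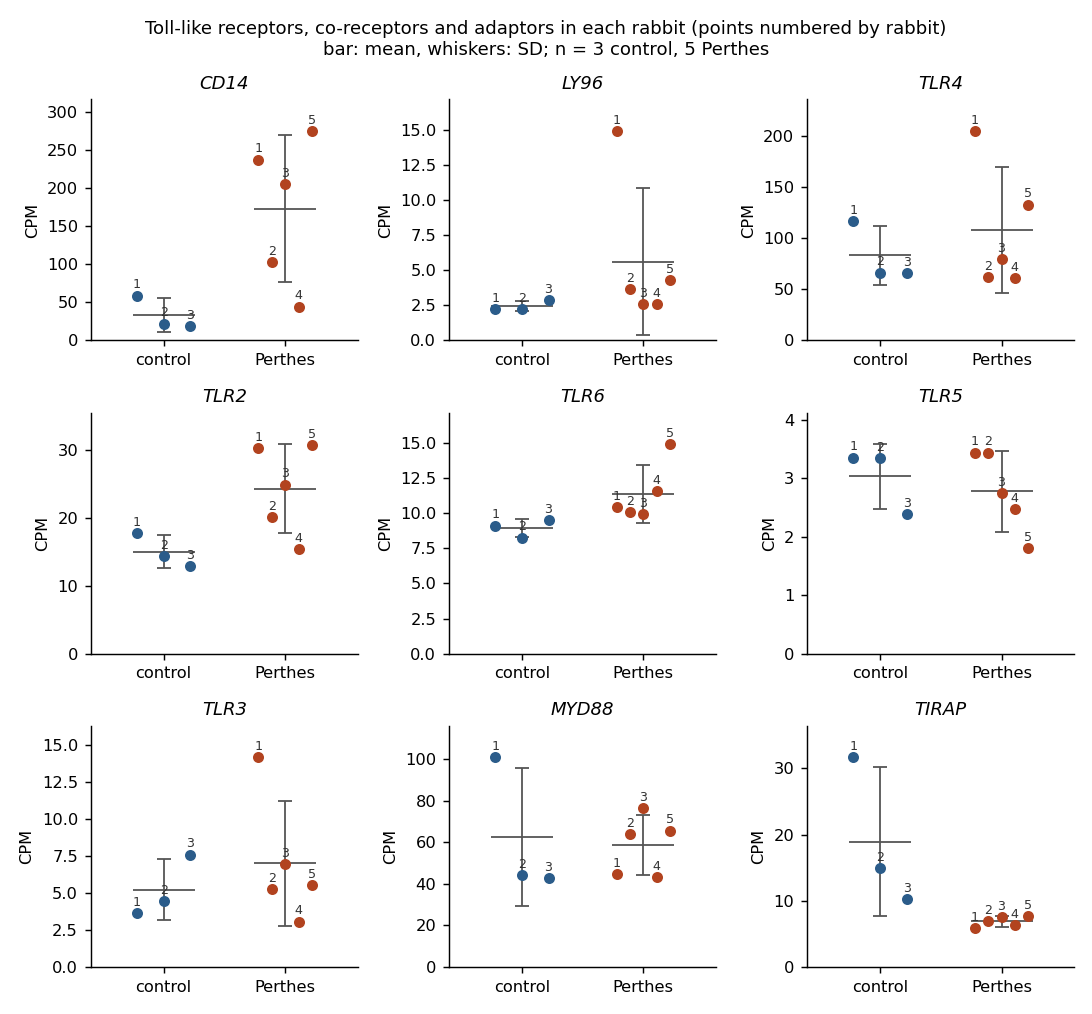
Level of each of the 9 genes in CPM (linear axis from 0) for every control and Perthes rabbit, with the group mean and SD. The 5 Perthes rabbits lie below all 3 controls for *TIRAP* (5.81 to 7.73 against 10.2 to 31.7 CPM), and 4 of them lie above all controls for *CD14* and for *TLR2*.

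*CD14* (gene 100008983) encodes a lipopolysaccharide-binding surface protein of monocytes and macrophages. It had 237, 103, 205, 44.4 and 275 CPM in Perthes rabbits 1 to 5 and 58.99, 22.2 and 18.9 CPM in control rabbits 1 to 3. Perthes rabbit 4 lay below control rabbit 1, and the other 4 Perthes rabbits lay above every control. The log2 fold change was 2.37 (SE 0.65, adjusted p = 0.0397 from edgeR). It ranged from 2.09 to 3.07 when 1 rabbit was left out. The adjusted p then exceeded 0.05 without Perthes rabbit 1 (0.0672), 3 (0.0797) or 5 (0.0787) and without control rabbit 1 (0.0621), 2 (0.142) or 3 (0.101), all from edgeR. Without Perthes rabbit 4 the log2 fold change was 2.62 with an adjusted p of 0.0155. The summed level of the macrophage markers, a list without *CD14*, was 1445, 903, 1142, 455 and 1318 CPM in Perthes rabbits 1 to 5 and 598, 539 and 489.7 CPM in the controls. It was thus likewise above all controls in 4 Perthes rabbits and lowest in Perthes rabbit 4, and its part in the rise of *CD14* was not tested.

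*TLR4* (100009497), the lipopolysaccharide receptor itself, had 205, 62.05, 79.4, 60.8 and 133 CPM in Perthes rabbits 1 to 5 and 117, 66.5 and 66.4 CPM in the controls. Perthes rabbits 1 and 5 were above all controls, and Perthes rabbits 2 and 4 were below all of them. The group means were 108 ± 61.8 CPM (SD, n = 5) and 83.4 ± 29.3 CPM (SD, n = 3), and the log2 fold change of 0.38 (SE 0.44, adjusted p = 0.587 from edgeR) was smaller than its SE. Without Perthes rabbit 1 it was 0.01. *LY96* (100009589), which encodes the secreted protein that binds lipopolysaccharide within the *TLR4* complex, had 14.9, 3.67, 2.61, 2.58 and 4.32 CPM and 2.22, 2.26 and 2.86 CPM. Perthes rabbit 1 alone held 54.6% of the Perthes counts. The log2 fold change was 1.20 (SE 0.61, adjusted p = 0.212 from edgeR), and 0.43 without that rabbit.

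Within a library, the ratio of *CD14* to *TLR4* counts does not depend on the scaling. It was 1.16, 1.65, 2.59, 0.730 and 2.06 in Perthes rabbits 1 to 5 and 0.503, 0.335 and 0.285 in control rabbits 1 to 3. Every Perthes rabbit, from 0.730 upward, was thus above every control, the highest of which had 0.503. This ratio was chosen after the values were seen, carries no test, and is not a ratio of molecules because the counts are not per length. The ratio of *LY96* to *TLR4* counts, at 0.0324 to 0.0727 in Perthes rabbits and 0.0189 to 0.0431 in controls, overlapped between the groups.

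**Figure D2:**
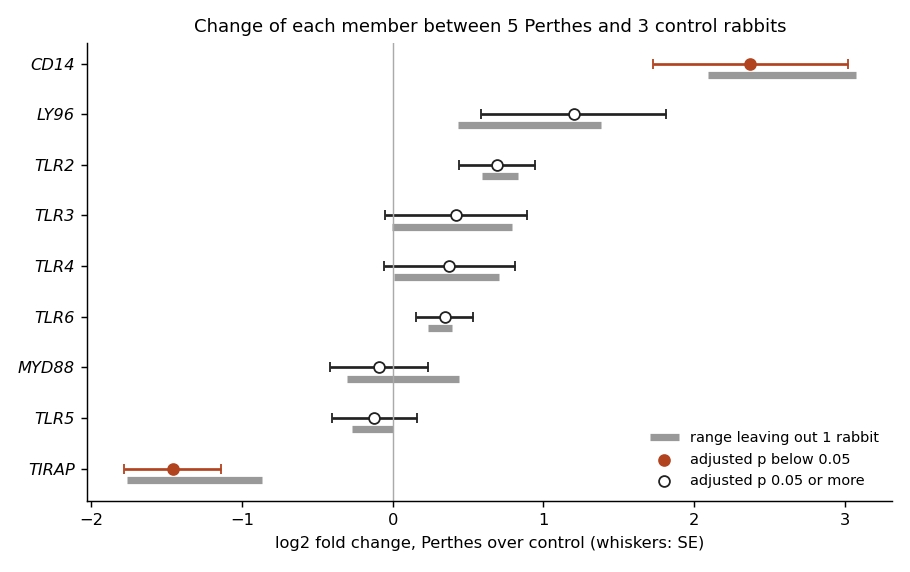
Log2 fold change of each gene, Perthes over control, from edgeR (points; whiskers are the SE), with the range when 1 of the 8 rabbits is left out (grey bars). *CD14* at 2.37 and *TIRAP* at -1.46 are the filled points, and the grey bars of *TLR3*, *TLR5* and *MYD88* reach across 0.

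*TLR2* recognizes bacterial lipoproteins as a dimer with *TLR1* or *TLR6*. *TLR2* (100009578) had 30.2, 20.1, 24.9, 15.4 and 30.6 CPM in Perthes rabbits 1 to 5 and 17.8, 14.4 and 12.9 CPM in the controls, so that only Perthes rabbit 4 lay within the control range. The log2 fold change was 0.69 (SE 0.25) and the adjusted p was 0.0955 from edgeR. Without Perthes rabbit 4 it was 0.82 with an adjusted p of 0.0329, the only one of the 14 alternative fits in which *TLR2* passed. *TLR6* (100353753) had 10.4, 10.1, 9.91, 11.6 and 14.9 CPM and 9.11, 8.25 and 9.51 CPM. Every Perthes rabbit was above every control for *TLR6*, which was true of 11.2% of all genes tested, but the change was small (log2 fold change 0.35, SE 0.19, adjusted p = 0.242 from edgeR).

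The *TLR6* values are uncertain because the gene shares reads with *TLR1*. In all 8 libraries the deposited counts of *TLR6* and of *TLR1* (100351814) were not whole numbers, whereas their sum was whole in 8 of 8 libraries within 0.01 counts. The other 8 members had whole counts in every library. *TLR10*, *TLR1* and *TLR6* follow each other on chromosome 2 of assembly mOryCun1.1. *TLR6* took 19.9, 38.2, 32.3, 55.9 and 34.5% of the sum in Perthes rabbits 1 to 5 and 38.2, 44.2 and 44.6% in the controls, a share that depends on how the authors' software divided the shared reads. The sum itself was 52.4, 26.4, 30.7, 20.7 and 43.1 CPM in Perthes rabbits and 23.9, 18.7 and 21.3 CPM in controls. Perthes rabbit 4 was below control rabbits 1 and 3 for the sum and the other 4 were above all controls. *TLR1* alone had a log2 fold change of 0.92 (SE 0.43, adjusted p = 0.178 from edgeR).

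*TLR5* (100350028), the receptor of bacterial flagellin, was at 3.45, 3.45, 2.75, 2.47 and 1.80 CPM in Perthes rabbits 1 to 5 and 3.36, 3.35 and 2.39 CPM in the controls. The groups overlapped over most of their range, with a log2 fold change of -0.12 (SE 0.28, adjusted p = 0.791 from edgeR). *TLR3* (100009024), an endosomal receptor of double-stranded RNA that does not use *MYD88*, had 14.2, 5.28, 6.94, 3.06 and 5.55 CPM and 3.64, 4.44 and 7.58 CPM. Perthes rabbit 1 was the highest and Perthes rabbit 4 the lowest of the 8 rabbits. The log2 fold change of *TLR3* was 0.42 (SE 0.47, adjusted p = 0.571 from edgeR), and -0.0049 without Perthes rabbit 1.

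Of the adaptors, *TIRAP* passed the test and *MYD88* did not, and the difference between them was not tested. *TIRAP* (100338708) had 5.81, 6.93, 7.56, 6.37 and 7.73 CPM in Perthes rabbits 1 to 5 and 31.7, 14.95 and 10.2 CPM in control rabbits 1 to 3. All Perthes rabbits lay below all controls, as for 13.9% of the genes tested, and they spread far less than the controls did. The log2 fold change was -1.46 (SE 0.32, adjusted p = 0.0210 from edgeR), a level 2.75-fold lower in Perthes rabbits. It ranged from -1.76 to -0.87 with 1 rabbit left out. The adjusted p exceeded 0.05 without Perthes rabbit 5 (0.0509), without control rabbit 1 (0.0668, log2 fold change -0.87) and without control rabbit 2 (0.0579), each from edgeR. The neutrophil markers summed to 511, 3077, 1898, 3058 and 1584 CPM in Perthes rabbits 1 to 5 and 23011, 8217 and 7707 CPM in the controls. Their level, too, was lower in all Perthes rabbits and highest in control rabbit 1. The same held for the platelet markers, at 6.62 to 98.8 CPM in Perthes rabbits and 428, 234 and 156 CPM in the controls. Erythroid markers were also lower in all Perthes rabbits but highest in control rabbit 2. The part of these cell types in the fall of *TIRAP* was not tested.

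*MYD88* (100340811) had 44.7, 64.1, 76.4, 43.2 and 65.6 CPM in Perthes rabbits and 101, 44.3 and 42.6 CPM in the controls. Control rabbit 1 was the highest of all 8 rabbits, as it was for *TIRAP*, and the other 2 controls were close to the lowest Perthes rabbits. The log2 fold change was -0.091 (SE 0.32, adjusted p = 0.868 from edgeR), and 0.44 without control rabbit 1. The ratio of *TIRAP* to *MYD88* counts was 0.130, 0.108, 0.0989, 0.147 and 0.118 in Perthes rabbits 1 to 5 and 0.314, 0.337 and 0.240 in the controls. The highest Perthes ratio (0.147) was below the lowest control ratio (0.240). This ratio, too, was chosen after the values were seen and carries no test.

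The members spread unequally over the rabbits. Perthes rabbit 4 was the lowest of its group for 6 of 9 members, and Perthes rabbits 1 and 5 were the highest of it for 4 members each. Control rabbit 1 was the highest control for 6 members and control rabbit 3 the lowest for 6. The highest Perthes value was 6.20 times the lowest for *CD14* and 5.78 times for *LY96*, but 1.33 times for *TIRAP*. *PTPRC*, the gene of the pan-leukocyte antigen CD45, was also lowest in Perthes rabbit 4. Its levels were 212, 102, 114, 64.5 and 149 CPM in Perthes rabbits 1 to 5 and 202, 117 and 119 CPM in the controls. Its group difference did not pass (log2 fold change -0.19, SE 0.36, adjusted p = 0.754 from edgeR). *CSF1R*, the macrophage colony-stimulating factor receptor, had 394, 334, 396, 186 and 431 CPM and 157, 178 and 162 CPM and rose (log2 fold change 1.07, SE 0.27, adjusted p = 0.0326 from edgeR). The adjusted p of *CSF1R* was 0.00766 to 0.112 with 1 rabbit left out and below 0.05 in 2 of those 8 fits, the ones without Perthes rabbit 2 or Perthes rabbit 4.

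**Figure D3:**
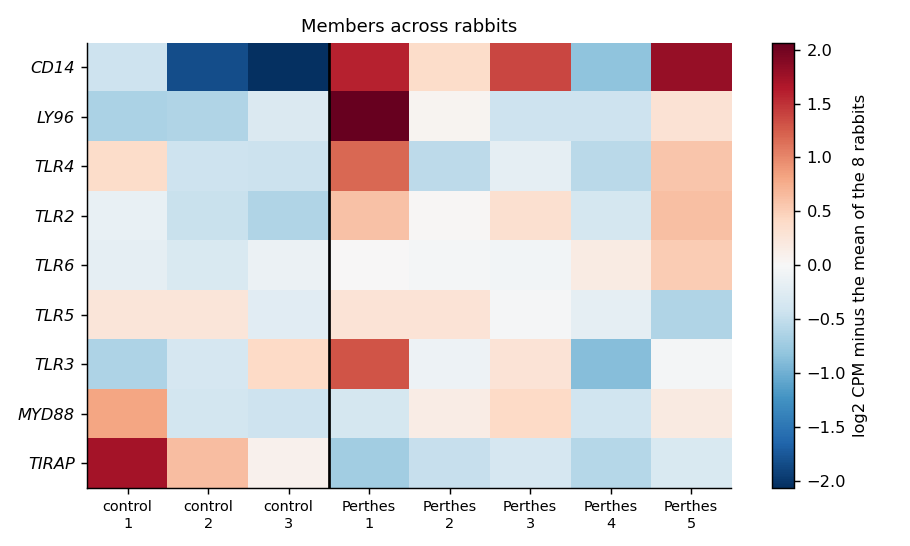
Log2 CPM of each gene in each rabbit, minus its mean over the 8 rabbits, as a color (red above, blue below the mean). *CD14* spans -2.06 in control rabbit 3 to 1.80 in Perthes rabbit 5, *TIRAP* is above its mean in all controls, and Perthes rabbit 1 stands out for *LY96*, *TLR3* and *TLR4*.

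The members were next set against leukocyte RNA of the same library, as a percentage of *PTPRC* counts or of *CSF1R* counts, which removes the scaling between libraries. Relative to *PTPRC*, *CD14*, *TLR2* and *TLR4* were higher in every Perthes rabbit than in any control, that is 3 of 9 members, where 7.76% of all genes tested were. No member was lower without overlap, as 3.91% of all genes were. *TLR4* was at 96.8, 61.1, 69.7, 94.2 and 89.5% of *PTPRC* in Perthes rabbits 1 to 5. The 3 controls lay close together at 57.9, 57.00 and 55.7%. *TLR2* was at 14.2% to 23.8% in Perthes rabbits and 8.78% to 12.3% in controls, and *CD14* at 68.8% to 185% and 15.9% to 29.2%. The differences of the mean log2 ratios were 0.51, 0.91 and 2.55, each with p = 0.0357 in a two-sided exact permutation test, the smallest p this test can give for 5 rabbits against 3, as it doubles the one-sided p. Adjusted over the 18 ratios tested, this permutation p became 0.107, so no ratio passed 0.05. With 5 rabbits against 3, a ratio could pass only if most of the 18 ratios reached the smallest p. The adjusted values therefore cannot decide whether a single ratio differed.

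Relative to *CSF1R*, *CD14* was again higher and *TIRAP* lower in the mean, as they were relative to *PTPRC* (-1.05 for *TIRAP*, exact permutation p = 0.0714, adjusted 0.161), but other members stood apart. *TIRAP* was at 1.47% to 3.42% of *CSF1R* in Perthes rabbits and 6.28% to 20.2% in controls, *MYD88* at 11.3% to 23.2% and 24.96% to 64.2%, and *TLR5* at 0.418% to 1.33% and 1.47% to 2.14%. These 3 of 9 were lower in every Perthes rabbit (exact permutation p = 0.0357, adjusted 0.107), as were 41.2% of all genes tested. No member was higher without overlap, as 1.12% of all genes were. *TLR4* overlapped between the groups on this scale, at 18.6% to 52.2% and 37.4% to 74.6%, as did *TLR2* and *CD14*. The mean log2 ratio of *CD14* to *CSF1R* differed by 1.28 (exact permutation p = 0.107, adjusted 0.193). *CSF1R* itself was higher relative to *PTPRC*, from 0.777 to 1.52 counts per *PTPRC* count in controls to 1.86 to 3.48 in Perthes rabbits.

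**Figure D4:**
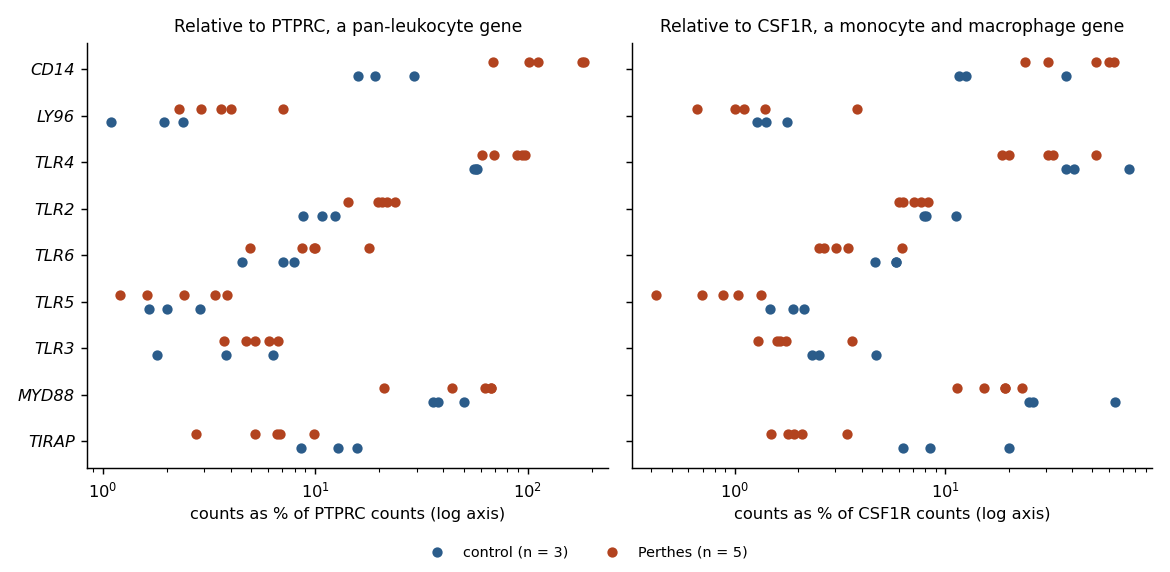
Counts of each gene as a percentage of *PTPRC* counts (left) or *CSF1R* counts (right) in the same library, on log axes, for 3 control and 5 Perthes rabbits. *TLR4* lies at 55.7% to 57.9% of *PTPRC* in controls and 61.1% to 96.8% in Perthes rabbits, while on the right the Perthes points of *TIRAP*, *MYD88* and *TLR5* lie left of all control points.

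For each member the genes with the most similar profile over the 8 rabbits were sought, by the root mean square difference of log2 CPM after removal of each gene's mean. For *CD14* they were *LPXN* (0.32), *CAPG* (0.32) and *CTSH* (0.33), against a median of 1.44 over all tested genes whose symbol is not an identifier. *CAPG* encodes an actin-capping protein and *CTSH* a lysosomal protease. Their log2 fold changes were 2.59, 2.21 and 2.25 (adjusted p = 0.0281, 0.0166 and 0.0375 from edgeR). For *TIRAP* they were *KIF21B* (0.11), *SLC9A3R1* (0.12) and *SRGN* (0.12), with a median of 0.87. *SRGN* encodes serglycin, a granule proteoglycan of blood cells, and its log2 fold change was -1.53 (adjusted p = 0.0202 from edgeR). For *LY96* the closest was *MNDA*, a myeloid nuclear antigen, at 0.25, followed by *ARAP2* and *RAB11A*. The nearest profile to *TLR2* was that of the sheddase *ADAM17* (0.11), and to *TLR6* that of the mitochondrial channel gene *VDAC1* (0.083). *TLR3* was nearest to *SEPTIN3* (0.22), *TLR4* to *TIGD2* (0.19), *TLR5* to *DDB2* (0.17) and *MYD88* to *AP5B1* (0.12). These distances are descriptions over 8 rabbits that share the group difference.

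Around the members, 140 other genes of the pathway were looked for in 7 lists, of which 127 were listed and 123 tested. Of these, 19 rose (15.4%) and 9 fell (7.32%), beside 6.21% and 8.86% of all genes. Leaving out control rabbit 2 left 0 and 0 in edgeR, as it did for all genes tested. In that fit 38 of these genes had an unadjusted p below 0.05, beside 23.9% of all genes tested. Without control rabbit 1 there were 4 and 2, without Perthes rabbit 5 10 and 4, without Perthes rabbit 3 9 and 5, and without control rabbit 3 11 and 8. DESeq2 called 29 and 13, beside 11.3% and 12.5% of all genes (23.8% in either direction). At the limits of the study, 0 of these genes passed in edgeR, and 6 higher and 2 lower genes passed in DESeq2: *RAB7B*, *CTSB*, *LGMN*, *ATF3*, *SAA3*, *LGALS3*, and *CD180* and *IRAK3*. The 8 edgeR fits that leave out 1 rabbit were tallied for 25 called genes named below, without *ICAM1*, *HYAL1* and *HYAL2*. Of these 25, 4 passed in 7 of the 8 fits, namely *CD180*, *LGMN*, *TAB3* and *LGALS3*, each failing without control rabbit 2. By contrast, 11 passed in 3 or fewer: *CTSS*, *IRF1*, *NFKBIE*, *TNIP3*, *CCL20*, *CD80*, *IL23A*, *HAS2*, *VCAN*, *S100A8* and *S100A9*. Of these, *CCL20* passed the filter on low counts in only 5 of the 8 fits and was called in 2 of those 5.

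Among 11 other receptors, co-receptors and adaptors, 0 rose and 1 fell (9.09%), beside 6.21% and 8.86% of all genes tested. The gene that fell was *CD180*, a receptor relative of *TLR4* found mainly on B cells and macrophages. It had 4.49, 7.30, 6.79, 2.62 and 3.88 CPM in Perthes rabbits 1 to 5 and 15.5, 31.6 and 18.99 CPM in the controls (log2 fold change -2.13, SE 0.36, adjusted p = 0.0129 from edgeR). Every Perthes rabbit was below every control, as for 13.9% of all genes tested. *TLR9*, the endosomal receptor of unmethylated DNA, was at 23.9 ± 6.21 CPM (SD, n = 5) and 21.8 ± 9.77 CPM (SD, n = 3), and *TLR10* at 1.79 ± 0.627 and 2.04 ± 0.253 CPM. Their log2 fold changes of 0.13 and -0.19 were within the spread of the rabbits (adjusted p = 0.807 and 0.762 from edgeR). *TICAM2*, which bridges *TLR4* to the interferon-inducing branch, was at -0.054 (adjusted p = 0.926 from edgeR). *TLR7* and the adaptor *TICAM1* were not among the listed symbols and were not analysed here.

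Of 11 genes of receptor folding, transport and cleavage, 4 rose (36.4%) and 0 fell, beside 6.21% and 8.86% of all genes tested. The median log2 fold change was 0.77. *CTSS*, *CTSB* and *LGMN* encode lysosomal proteases that cleave endosomal receptors, among many other substrates. *CTSS* had 60.2 to 509.7 CPM in Perthes rabbits and 32.7 to 59.9 CPM in controls (log2 fold change 2.74), *CTSB* 745 to 5561 and 488 to 579.6 CPM (2.61), and *LGMN* 421 to 950.4 and 132 to 166 CPM (2.13). *RAB7B*, a small GTPase of the route from endosome to lysosome, had the largest change of the list, at 13.2 ± 8.03 CPM in Perthes rabbits (SD, n = 5) and 0.788 ± 0.201 CPM in controls (SD, n = 3). For *RAB7B* the log2 fold change came to 4.06 (SE 0.73), and the adjusted p-values of these 4 genes were 0.0218, 0.0209, 0.0118 and 0.0136 from edgeR. All 4 had groups that did not overlap, *CTSS* only narrowly, and 11.2% of all genes tested were higher without overlap. The 4 were named because they passed the test, so this is no separate support. Of the macrophage markers, 4 of 7 tested genes rose and 1 fell, and their summed level overlapped between the groups, as given above. The part of macrophages in the rise of these 4 genes was not tested.

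The signaling kinases and ubiquitin ligases had a median log2 fold change of -0.058, with 0 of 27 rising and 3 falling (11.1%). Over all genes tested, 6.21% rose and 8.86% fell, so the share that fell is close to the background. *TAB3*, an adaptor of the kinase TAK1, fell, with 29.2 ± 4.11 CPM in Perthes rabbits (SD, n = 5), 64.01 ± 3.09 CPM in controls (SD, n = 3) and a log2 fold change of -1.13 (SE 0.15, adjusted p = 0.0118 from edgeR). *MAP2K3*, a kinase that activates p38, fell by 1.31 on the log2 scale (adjusted p = 0.0150 from edgeR). *BTK*, a kinase of B cells and myeloid cells, fell by 1.34 (adjusted p = 0.0185 from edgeR). For all 3 of these genes every Perthes rabbit was below every control, as for 13.9% of all genes tested. The 3 were named because they passed the test, so this is no separate support. *IRAK4* and *TRAF6*, which act directly below *MYD88*, had log2 fold changes of 0.11 (SE 0.17) and -0.15 (SE 0.13), with adjusted p-values of 0.677 and 0.448 from edgeR.

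Of 14 transcription factors, 2 rose (14.3%) and 1 fell (7.14%), with a median of 0.21, beside 6.21% and 8.86% of all genes tested. *JUN*, a subunit of AP-1, had 30.2 ± 7.64 CPM in Perthes rabbits (SD, n = 5) and 11.1 ± 4.42 CPM in controls (SD, n = 3; log2 fold change 1.45, SE 0.32, adjusted p = 0.0201 from edgeR). Every Perthes rabbit was above every control for *JUN*, as for 11.2% of all genes tested. *CEBPB*, a factor of macrophages and the acute phase, rose by 1.35 (adjusted p = 0.0202 from edgeR). *IRF1*, an interferon-response factor, fell by 1.35 (SE 0.37, adjusted p = 0.0396 from edgeR). Its level of 215 CPM in control rabbit 1 was far above the 68.8 and 73.1 CPM of the other controls. Without control rabbit 1 the log2 fold change of *IRF1* was -0.60 (adjusted p = 0.132 from edgeR), and *IRF1* passed in only 1 of the 8 fits with a rabbit left out, the one without control rabbit 3.

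Inhibitors of the pathway changed in either direction, with 2 of 23 rising, 2 falling and a median of -0.08. Each direction held 8.7% of them, close to the 6.21% and 8.86% of all genes tested. *IRAK3*, which encodes the inhibitory kinase homolog IRAK-M of myeloid cells, had 5.98, 13.1, 7.16, 17.4 and 7.01 CPM in Perthes rabbits 1 to 5 and 72.5, 41.2 and 35.1 CPM in the controls. All Perthes rabbits were lower, as for 13.9% of all genes tested, with a log2 fold change of -2.29 (SE 0.39, adjusted p = 0.0133 from edgeR). There were 0.0937 to 0.402 *IRAK3* counts per *MYD88* count in Perthes rabbits and 0.719 to 0.930 in controls, a ratio chosen after the values were seen. *TNIP3*, a partner of the deubiquitinase A20, fell by 1.82 (adjusted p = 0.0305 from edgeR). *ATF3*, a stress-induced repressor of cytokine genes, rose, with 106 ± 69.2 CPM in Perthes rabbits (SD, n = 5), 6.30 ± 5.09 CPM in controls (SD, n = 3) and a log2 fold change of 4.07 (SE 0.90, adjusted p = 0.0210 from edgeR). *NFKBIE* rose by 0.76 (adjusted p = 0.0492 from edgeR), just past the threshold. It missed it with library totals (0.0667), without the filter (0.0584), with at least 10 counts in every sample (0.0510) and in all fits with a rabbit left out except those without Perthes rabbit 1 or 4. *NFKBIA* and *TNFAIP3*, which NF-κB itself induces, were at -0.11 and -0.064, and *TOLLIP* at 0.15 (adjusted p = 0.785, 0.837 and 0.725 from edgeR).

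Among the inducible outputs, 18 of 21 listed genes were tested, 5 rose (27.8%) and 0 fell, with a median of 1.31. Over all genes tested, 6.21% rose and 8.86% fell. The monocyte chemokine gene *CCL2* had 76, 22, 21, 43 and 53 counts among the Perthes rabbits and 3, 0 and 6 among the controls. For *CCL20* there were 30, 11, 8, 3 and 17 counts and 1, 1 and 1 counts. Both passed the test (adjusted p = 0.0176 and 0.0239 from edgeR), but no fold is given for either because most of their control libraries held 3 counts or fewer. *CD80*, a costimulatory ligand of antigen-presenting cells, rose by 1.95 (adjusted p = 0.0344 from edgeR), although Perthes rabbit 4 (5.09 CPM) was below control rabbit 1 (5.82 CPM). *IL23A* rose by 1.66 from 0.208 ± 0.0700 CPM (SD, n = 3; adjusted p = 0.0226 from edgeR), but it was below 1 CPM in every library. It had 21, 14, 20, 16 and 23 counts in Perthes rabbits and 4, 8 and 6 in controls, so its fold is uncertain. *ICAM1*, a leukocyte adhesion molecule, was the fifth that passed, with a log2 fold change of 1.57 (SE 0.18, adjusted p = 0.0118 from edgeR). *TNF*, at 1.19 ± 0.632 CPM (SD, n = 5) and 0.988 ± 0.360 CPM (SD, n = 3), had a log2 fold change of 0.28 (adjusted p = 0.740 from edgeR). *IL1B* was at -0.84 (SE 0.99, adjusted p = 0.595 from edgeR), where Perthes rabbit 4 at 41.4 CPM exceeded every control and the other 4, at 1.76 to 5.32 CPM, lay below all controls. Without that rabbit the log2 fold change of *IL1B* was -2.61 (adjusted p = 0.0130 from edgeR). The same rabbit held most *IL6* counts, which were 38, 7, 10, 512 and 9 in Perthes rabbits and 3, 0 and 1 in controls and did not pass the filter.

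Genes of endogenous ligands, and of the enzymes that make or cut hyaluronan fragments, moved in either direction. Of 19 tested, 6 rose (31.6%) and 2 fell (10.5%), with a median of 0.74, beside 6.21% and 8.86% of all genes tested. *LGALS3*, the macrophage lectin galectin-3, rose, with 499 ± 288 CPM in Perthes rabbits (SD, n = 5), 17.4 ± 6.70 CPM in controls (SD, n = 3) and a log2 fold change of 4.84 (SE 0.70, adjusted p = 0.0118 from edgeR). The acute-phase gene *SAA3* rose by 5.09 (SE 1.08, adjusted p = 0.0183 from edgeR), and Perthes rabbit 4 had 923 CPM of it. The hyaluronan synthase gene *HAS2* rose by 1.75, with 64.7, 22.2, 41.5, 49.7 and 54.3 CPM in Perthes rabbits and 8.93, 9.03 and 23.5 CPM in controls, where control rabbit 3 lay above Perthes rabbit 2. *VCAN*, a hyaluronan-binding matrix proteoglycan, rose by 1.13 (adjusted p = 0.0305 and 0.0306 from edgeR), and *HYAL1* and *HYAL2*, which cut hyaluronan, also passed.

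In contrast, RNA of *S100A8* and *S100A9*, which encode neutrophil proteins that are ligands of *TLR4*, fell, with log2 fold changes of -3.76 and -3.69 (SE 1.06 and 1.05, adjusted p = 0.0439 and 0.0453 from edgeR). *S100A8* had 4.36, 253, 77.00, 301 and 32.5 CPM in Perthes rabbits 1 to 5 and 3222, 1190 and 1037 CPM in the controls. These genes are also on the neutrophil list, whose summed level did not overlap between the groups, and the part of neutrophils in their fall was not tested. *HMGB1*, a nuclear protein released by dying cells, was at 67.96 ± 24.3 CPM (SD, n = 5) and 149 ± 57.7 CPM (SD, n = 3). Its log2 fold change of -1.13 (SE 0.34) had an adjusted p of 0.0527 from edgeR.

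**Figure D5:**
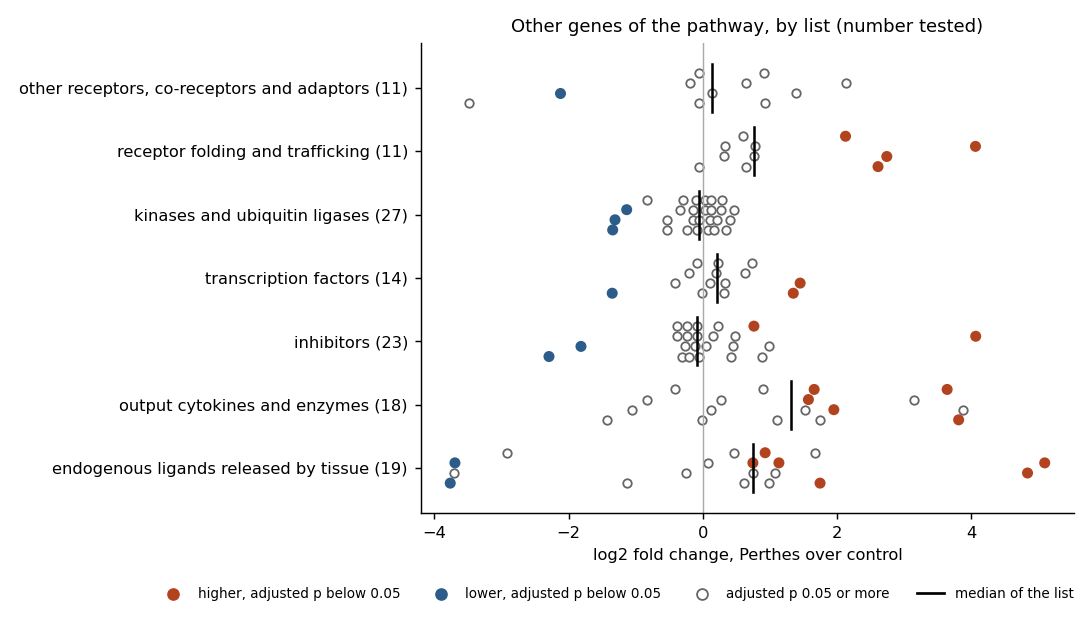
Log2 fold change, Perthes over control, of the 123 other pathway genes tested, by list, with the list median as a black line and filled points at an adjusted p below 0.05. The medians lie from -0.08 for the inhibitors and -0.058 for the kinases to 1.31 for the outputs, with *LGALS3*, *SAA3*, *RAB7B* and *ATF3* farthest to the right.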

How the data were processed

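Total RNA-seq of 8 femoral heads was analysed. The authors filtered reads with SOAPnuke, mapped them with HISAT2 2.0.4 and, per the labels, used HTSeq 1.99.2 and RSEM 1.1.17 for gene quantities. The authors deposited the result as estimated counts (RSEM's expected counts) per gene, without normalization, and these were rounded here. Another 8 count columns, identical to those used, and the miRNA table were not used. Control rabbit 3 was numbered by the code in its title.

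TMM scaling, the filterByExpr filter and quasi-likelihood F-tests without covariates came from edgeR 4.0.16 (R 4.3.3). The p-values of all genes tested were adjusted by the Benjamini-Hochberg method and read at 0.05. The SE is the log2 fold change divided by the square root of F. Log2 CPM used a prior count of 2. Ratios used a pseudocount of 1 and exact permutation tests in scipy 1.17.1. At these depths precision was limited by the spread between rabbits. On simulated counts of 15135 genes, edgeR recovered 91.00% and 98.00% of genes changed by 2 and 3 on the log2 scale, with 6 wrong calls. The simulated spread between rabbits followed expression level alone, without the added spread of single genes or rabbits set apart. These shares check the procedure and are not the power of the real comparison, where genes not called may still have changed.

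The members and lists were chosen with earlier results of these data known. Named genes were all members, up to 4 called genes per list and direction with the largest change, key genes listed beforehand, and the 3 nearest profiles per member. *HYAL1*, *HYAL2* and *ICAM1* were named beyond that rule to complete counts, after their values were seen. Alternatives were DESeq2 1.42.0, other scaling, filters and thresholds, a replicate block, and each rabbit left out.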

Additional observations from a re-analysis of the deposited data

Results flagged for a closer look

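In 6 of 52 genes with values in the text, 1 Perthes rabbit stood apart from the other 4 by more than 0.71 of the range of the group, Dixon's limit for 5 values. Chance gives such a gap in about 1 of 20 groups if the values are normally distributed. Levels in CPM need not be, and the genes share the same 5 rabbits, so 6 of 52 cannot be read against that share. *LY96* had 14.9 CPM in Perthes rabbit 1 against 2.58 to 4.32 CPM in the other 4, a gap of 0.859 of the whole range. *IL6* had 18.6 CPM in Perthes rabbit 4 against 0.262 to 1.28 CPM in the other 4, a gap of 0.944 of the whole range. *IL1B* had 41.4 CPM in Perthes rabbit 4 against 1.76 to 5.32 CPM in the other 4, a gap of 0.910 of the whole range. *SAA3* had 923 CPM in Perthes rabbit 4 against 56.6 to 272 CPM in the other 4, a gap of 0.751 of the whole range. *TLR10* was low, with 0.691 CPM in Perthes rabbit 4 against 1.87 to 2.20 CPM in the other 4, a gap of 0.785 of the whole range. *VCAN* had 2622 CPM in Perthes rabbit 2 against 1220 to 1617 CPM in the other 4, a gap of 0.717 of the whole range. Perthes rabbit 4 was the one set apart in 4 of these genes, which were highest in it for *IL6*, *IL1B* and *SAA3* and lowest for *TLR10*.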

How the results depend on the processing

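*CD14* and *TIRAP* remained the higher and the lower member with DESeq2's size factors, library totals alone, no filter, at least 10 counts in every sample and in DESeq2 itself (adjusted p = 4.30e-04 and 6.26e-04). At a log2 fold change beyond 1 both counts were also 1. At the limits of the study the edgeR counts of members and of other pathway genes in either direction were 0, as over all genes. With DESeq2 the other pathway genes numbered 29 higher, where 11.3% of all genes were. With library totals alone, the genes called over the whole table were 678 higher and 1705 lower, against 951 and 1356 with TMM. Leaving out 1 rabbit gave 0 to 2 members higher, 0 to 1 lower, 0 to 24 other pathway genes higher and 0 to 10 lower. Without control rabbit 2 no gene of 15594 passed in edgeR and 3722 had an unadjusted p below 0.05. The cause was not tested.

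No pairing by replicate number was seen: after subtraction of the group mean, the correlations between rabbits with the same number were -0.317, 0.161 and -0.238. Between rabbits with different numbers they ran from -0.314 to 0.435, and 3 pairs are too few to show that no pairing exists. The numbers 4 and 5 occur only among Perthes rabbits. A fit with the number as a replicate block thus takes the group difference from rabbits 1 to 3 of each group alone. With this block, edgeR called 0 members, 0 other pathway genes and 0 of all 15305 genes in either direction. The adjusted p was 0.104 for *CD14* and 0.207 for *TIRAP*, both from edgeR and with fewer rabbits behind them. In that fit, the unadjusted p was below 0.05 for 3 members and 40 other pathway genes, beside 20.6% of all genes. The block turned the log2 fold changes of *TLR5* (0.092), *MYD88* (0.084), *TLR10* (0.034) and *TICAM2* (0.18), none of them called. With 1 rabbit left out, these uncalled values changed sign, with the range over the 8 fits: *TLR3* (-0.0049 to 0.79, turned without Perthes rabbit 1), *TLR5* (-0.27 to 0.0012, turned without Perthes rabbit 5), *MYD88* (-0.31 to 0.44, turned without Perthes rabbit 4 or control rabbit 1), *TLR9* (-0.12 to 0.54, turned without control rabbit 3), *TLR10* (-0.27 to 0.018, turned without Perthes rabbit 4), *TICAM2* (-0.29 to 0.42, turned without Perthes rabbit 4 or control rabbit 1), *TOLLIP* (-0.029 to 0.47, turned without control rabbit 3), *TNFAIP3* (-0.19 to 0.13, turned without Perthes rabbit 1 or control rabbit 1), *NFKBIA* (-0.25 to 0.18, turned without control rabbit 1), *PTPRC* (-0.44 to 0.12, turned without control rabbit 1), the log2 ratio of *TLR5* to *PTPRC* (-0.081 to 0.33, turned without Perthes rabbit 2 or Perthes rabbit 4 or control rabbit 1) and the log2 ratio of *LY96* to *CSF1R* (-0.55 to 0.073, turned without Perthes rabbit 3). No ratio passed an adjusted 0.05 under any of the 9 alternatives. In the 8 that leave out 1 rabbit, the two-sided exact permutation test cannot reach 0.05 even before adjustment, so their outcome was fixed by the number of rabbits.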

Other observations

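The table lists 3 more Toll-like receptors under identifiers, which its descriptions name *TLR11*, *TLR12* and *TLR13*. In mice *TLR13* recognizes bacterial ribosomal RNA and *TLR11* and *TLR12* recognize a parasite profilin, and humans lack functional copies. These genes were picked by description after the values had been seen. The *TLR13* entry (LOC100359168) had 23.4, 10.4, 11.7, 4.15 and 16.03 CPM in Perthes rabbits 1 to 5 and 5.14, 2.997 and 2.99 CPM in control rabbits 1 to 3. Only Perthes rabbit 4 fell within the control range. It rose, with a log2 fold change of 1.82 (SE 0.51, adjusted p = 0.0427 from edgeR), though with 1 rabbit left out the adjusted p was 0.0122 to 0.147 and below 0.05 in 2 of 8 fits. No receptor among the 5 tested above passed, and whether the *TLR13* entry differed from them was not tested.

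The *TLR12* entry (LOC100338778) had 19.8, 24.98, 11.4, 2.22 and 56.8 CPM in Perthes rabbits 1 to 5 and 5.002, 6.35 and 5.02 CPM in control rabbits 1 to 3. Perthes rabbit 4 was below all controls and the other 4 were above all of them, and the log2 fold change was 2.08 (SE 0.81, adjusted p = 0.115 from edgeR). Without Perthes rabbit 4 it was 2.37 with an adjusted p of 0.0208, and with all rabbits in DESeq2 it was 2.07 with an adjusted p of 0.0179. The *TLR11* entry (LOC100347922) was near the limit of detection, with 7, 7, 14, 5 and 27 counts in Perthes rabbits and 30, 19 and 21 in controls (log2 fold change -0.93, SE 0.54, adjusted p = 0.266 from edgeR).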
